A study of Mus musculus with 7 samples.

Results

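Delta cell open chromatin was taken as the set of regions with an ATAC-Seq peak in both delta libraries. Peaks of the 2 delta lists that overlapped by at least 1 bp were merged, and 45225 regions holding a peak of delta 1 and a peak of delta 2 were kept out of 185984 merged delta regions (24.3%). All 7 lists of the series together merged into 834695 regions, of which 133698 held peaks of at least 2 libraries. The same rule gave 45594 regions in both alpha lists, and 56240 regions were open in at least 2 of the 3 beta lists.

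Delta cells are the islet endocrine cells that secrete somatostatin, a peptide that acts locally to restrain the release of insulin from beta cells and of glucagon from alpha cells. Their release of somatostatin is driven by glucose and tuned by receptors for gut and islet hormones, among them the ghrelin receptor. ATAC-Seq uses the Tn5 transposase, which inserts sequencing adapters where DNA is not wrapped in nucleosomes, so a peak marks an accessible promoter or a distal element such as an enhancer.

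Islet cells were FACS-sorted from healthy triple transgenic mice. All carried the mIns1-H2b-mCherry and Rosa-LSL-YFP alleles, and the third allele was the Sst-Cre or the Gcg-Cre driver. Delta cells came from Sst-Cre and alpha cells from Gcg-Cre mice, so driver and cell type cannot be told apart between them. Beta cells were sorted from mice of both drivers, and the labels do not give the driver of each beta library. The nuclear mCherry follows the activity of the Ins1 promoter and so labels beta cells. YFP is switched on by Cre in cells where the Sst or Gcg promoter is or was active, so the sort follows the lineage of the driver rather than its present expression. Mice were pooled by sex, with a median of 20000 cells per sample, and the libraries labelled as biological replicates numbered 2 for alpha, 3 for beta, and 2 for delta cells. The study lists fewer cells for delta 2 than for any other library. Per the study, delta 1, alpha 1, and beta 2 came from female mice and the other libraries from male mice, so that in delta cells the replicate and the sex cannot be told apart. Delta 1 had 0.0924% of its peaks on the Y chromosome and delta 2 had 0.442%. Mouse ages are not given in the sources used here.

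The delta 1 list held 158066 peaks, of which 29.3% fell in delta regions, and the delta 2 list held 75860, of which 61.8% did. The other lists held between 91089 and 518503 peaks, the longest being beta 1, and the peaks whose -log10 q was 2 or more made up from 5% of the list in beta 1 to 54.9% in delta 2. For comparisons between libraries each list was therefore cut to its 40000 peaks of lowest p, called its strongest peaks here. The cut lists were still not alike. All strongest peaks of the alpha and delta libraries had a -log10 q of at least 2, but only 64.8% in beta 1, 80.1% in beta 2, and 95.1% in beta 3. Comparisons with beta cells thus include beta peaks under that threshold, and their part in the differences was not tested. A percentile gives the place of a peak within its own list by -log10 p, with 100 the strongest, and the fold enrichment is the signal over the local background in the same library. Percentiles do not compare directly between lists of unlike length, and in the long beta 1 list a weak peak can stand high. Peak lists hold no reads outside peaks, so a missing peak says that none was called at that depth. Per the study, both alpha libraries had more uniquely mapped reads than the 3 beta libraries, and delta 1 had more than delta 2. Depth and cell type can thus not be told apart between alpha and beta cells. Beyond the cut to equal list length, no comparison was adjusted for depth. The deposited list names of the 3 beta libraries carry another cell type than their labels, alpha for beta 1 and delta for beta 2 and beta 3. Per the study, beta cells were sorted beside alpha or delta cells, and whether the names refer to those sorts was not tested. The labels were used, and the contrast of delta with alpha cells does not use the beta means.

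The sequences below are the parts of the delta identity loci to which the peaks point, read from GRCm38. The first is the stretch of the Sst promoter with the cAMP response element, in capitals (TGACGTCA), which is the site through which cAMP signalling is known to act on somatostatin transcription. It begins 48 bases before the RefSeq start of Sst, it lies inside a delta region, and it is shown on the minus strand, the coding strand of Sst. The same 8 letters, read on both strands, were in 1.55% of 32851 RefSeq promoters of 250 bases.
Sst cAMP response element, chr16:23890874-23890903: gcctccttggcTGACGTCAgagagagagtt

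The next 3 sequences are from the plus strand around the summits of distal regions of Sst. The region 48159 bp downstream carried a homeodomain core (TAATTA), the recognition site of GATA factors (GATAAG, here as its reverse complement), and an E-box (CAGATGG), which are in capitals, whereas the windows shown for the other 2 regions held no match to any of the 10 motifs searched.
Sst, 48159 bp downstream, chr16:23842912-23843112: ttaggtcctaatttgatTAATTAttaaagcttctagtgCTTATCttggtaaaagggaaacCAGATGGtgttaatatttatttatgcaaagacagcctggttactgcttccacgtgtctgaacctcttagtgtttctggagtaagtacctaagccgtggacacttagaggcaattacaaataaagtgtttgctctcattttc
Sst, 2732 bp downstream, chr16:23888082-23888282: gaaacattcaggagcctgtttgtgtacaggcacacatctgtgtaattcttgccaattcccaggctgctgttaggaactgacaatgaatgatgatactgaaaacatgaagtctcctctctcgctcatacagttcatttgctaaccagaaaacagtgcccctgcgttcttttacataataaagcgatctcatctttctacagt
Sst, 5840 bp upstream, chr16:23896702-23896902: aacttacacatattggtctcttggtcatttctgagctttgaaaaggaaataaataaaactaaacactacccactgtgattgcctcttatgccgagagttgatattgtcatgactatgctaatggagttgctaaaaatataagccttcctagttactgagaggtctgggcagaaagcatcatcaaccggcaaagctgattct

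The following sequences, also from the plus strand, are from Hhex, Rbp4, and Ghsr. Capitals mark 3 GC boxes (GGGGCGG) in the Hhex promoter, an HNF1 motif (GTTAATNAT) downstream of Hhex, an RFX motif (GTTGCCATG) and an AP-1 motif (TGACTCA, here as its reverse complement) upstream of Rbp4, and the Ghsr window held none of the 10 motifs. A match is a description of the letters and not a bound site.
Hhex promoter, chr19:37434591-37434809: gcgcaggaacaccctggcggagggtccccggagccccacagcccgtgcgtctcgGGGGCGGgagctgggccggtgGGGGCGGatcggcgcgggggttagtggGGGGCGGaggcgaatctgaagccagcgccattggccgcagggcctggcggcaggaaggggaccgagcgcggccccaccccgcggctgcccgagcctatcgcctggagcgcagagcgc
Hhex, 8005 bp downstream, chr19:37442708-37442908: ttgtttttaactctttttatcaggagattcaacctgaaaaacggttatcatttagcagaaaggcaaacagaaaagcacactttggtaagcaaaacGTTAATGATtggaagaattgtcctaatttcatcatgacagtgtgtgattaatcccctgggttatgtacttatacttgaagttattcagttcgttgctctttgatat
Rbp4, 6832 bp upstream, chr19:38132049-38132249: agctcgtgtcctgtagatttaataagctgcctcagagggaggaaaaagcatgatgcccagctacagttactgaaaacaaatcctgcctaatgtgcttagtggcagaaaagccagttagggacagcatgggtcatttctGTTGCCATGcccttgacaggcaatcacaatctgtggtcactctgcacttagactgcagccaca
Rbp4, 9036 bp upstream, chr19:38134208-38134408: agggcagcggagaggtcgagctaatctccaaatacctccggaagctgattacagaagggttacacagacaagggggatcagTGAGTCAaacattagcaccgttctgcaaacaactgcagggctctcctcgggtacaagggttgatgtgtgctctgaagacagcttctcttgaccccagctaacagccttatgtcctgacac
Ghsr, 36133 bp downstream, chr3:27407172-27407372: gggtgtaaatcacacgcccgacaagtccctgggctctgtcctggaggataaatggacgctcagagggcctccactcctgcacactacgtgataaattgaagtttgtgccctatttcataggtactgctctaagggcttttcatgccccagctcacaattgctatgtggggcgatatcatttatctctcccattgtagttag

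The delta identity genes had 27 distinct delta regions within 50 kb. Of these, 6 (22.2%) had no peak in any alpha or beta list, beside 6.08% of all delta regions, and 10 (37.0%) had none in any beta list, beside 14.8%. Those 6 regions were mostly weak. Only the 1 in an intron of Rbp4 had a -log10 q of at least 2 in both delta lists (2.56 and 2.32). Over all delta regions without a peak elsewhere, 22.2% passed that threshold in both. Only 2 of the 27 had a peak in all 5 other libraries, beside 38.9% of all delta regions.

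Sst, which encodes somatostatin, lies on the minus strand of chromosome 16 (23889573 to 23890958) and had 5 delta regions within 50 kb, with 3 alpha and 1 beta region in the same window. The start of the gene was open in both delta libraries but weakly so. The region chr16:23890592-23891085 reached percentile 17.1 in delta 1 and 14.4 in delta 2, with a fold enrichment of 2.91 and 2.90. It had no peak in alpha 1, alpha 2, beta 2, or beta 3, but beta 1 had a peak at percentile 95.5 with a fold enrichment of 3.57. The start peak of the hormone that defines the cell type was thus no strong peak of either delta list, and it was absent from 4 of the 5 other lists.

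The other 4 regions of Sst had a higher fold enrichment than its start in both delta libraries. The region 2732 bp downstream of the start had a fold enrichment of 3.93 in delta 1 and 4.23 in delta 2, and elsewhere only beta 1 had a peak in it, at percentile 2.14. The region 5840 bp upstream reached 3.01 and 3.79 and the region 5591 bp downstream 3.85 and 3.17, and neither held a peak of any alpha or beta library. The region 48159 bp downstream was open in all 7 libraries, with a fold enrichment of 9.77 in delta 1 and 9.04 in delta 2, between 5.36 and 8.33 in the alpha libraries, and between 3.28 and 5.38 in the beta libraries. Both delta values lay above all 5 others there, but fold enrichment is scaled to the background of each library, and no test was made of it.

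Hhex, the homeodomain transcription factor that maintains delta cell identity, had 4 delta regions within 50 kb, with 2 alpha regions and 0 beta regions. Its start region, chr19:37434407-37434942, had a fold enrichment of 8.41 in delta 1 and 5.70 in delta 2, beside 4.86 in alpha 2 and 1.80 in beta 1, and the other 3 libraries had no peak in it. Alpha 1 did have a peak close to the Hhex start, at percentile 65.6, that did not reach the delta region. The region 8005 bp downstream was open in delta cells alone, with a fold enrichment of 4.55 and 3.36, and it is the region with the HNF1 motif shown above. The region 23225 bp downstream, reached 7.89 and 6.35 in delta cells and was also open in both alpha libraries (4.50 and 6.49), in beta 2 (3.39), and in beta 3 (4.02).

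Rbp4, which encodes the retinol carrier of plasma, and Ffar4, which encodes a receptor for long-chain fatty acids, are neighbours on chromosome 19 and share most of their regions. Rbp4 had 10 delta regions within 50 kb, with 6 alpha regions and 1 beta region, and Ffar4 had 11, with 7 and 2. The region at the start of Rbp4 had a fold enrichment of 5.98 in delta 1 and 9.30 in delta 2 and of 7.78 and 5.88 in alpha 1 and alpha 2, so that delta and alpha values overlapped, and no beta library had a peak in it. The start region of Ffar4 reached 8.82 and 9.41 in delta cells and 6.34 and 5.91 in alpha cells, again with no beta peak in the region. Both genes were open at their start in the 4 delta and alpha libraries, and neither start told delta from alpha cells by presence.

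The regions between and beyond the 2 genes differed more between lists. The region 6832 bp upstream of Rbp4, with the RFX motif, had a fold enrichment of 5.75 in delta 1 and 6.52 in delta 2 and no peak elsewhere but 1 at 1.80 in beta 1. At a coding exon of Ffar4, 10278 bp downstream of its start, a weak region was found in delta cells alone (2.87 and 3.28), and so was a region in an Rbp4 intron (3.96 and 3.93). The region in an intron of Pde6c, 9036 bp upstream of Rbp4, was strong in delta cells (8.52 and 9.78) and in alpha cells (5.88 and 8.44) and absent from the beta lists. In the 50-kb window chr19:38087267-38137266, which held 10 delta regions, the strongest peaks numbered 7 and 6 in the delta libraries, 4 and 5 in the alpha libraries, and 0 in each beta library.

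Ghsr, the ghrelin receptor, had 7 delta regions within 50 kb, with 2 alpha and 3 beta regions. Its start region had a fold enrichment of 6.19 in delta 1 and 7.50 in delta 2, of 4.40 in alpha 2, and of 2.70 in beta 1. A second delta region, 509 bp downstream of the start, had 4.81 in delta 1 and 3.09 in delta 2. Alpha 1 and alpha 2 reached 4.50 and 5.87 in it, and no beta library had a peak there. The start of Ghsr was thus open in both alpha libraries as well. The region 36133 bp downstream of the start was the strongest of the locus, with 8.02 in delta 1 and 10.3 in delta 2, and the peaks of alpha 2 (3.67), beta 1 (2.70), and beta 2 (3.91) in it were lower than both. Of the 4 regions upstream, 3 lay in or at the neighbouring gene Tnfsf10, which encodes a death receptor ligand.

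**Figure D1:**
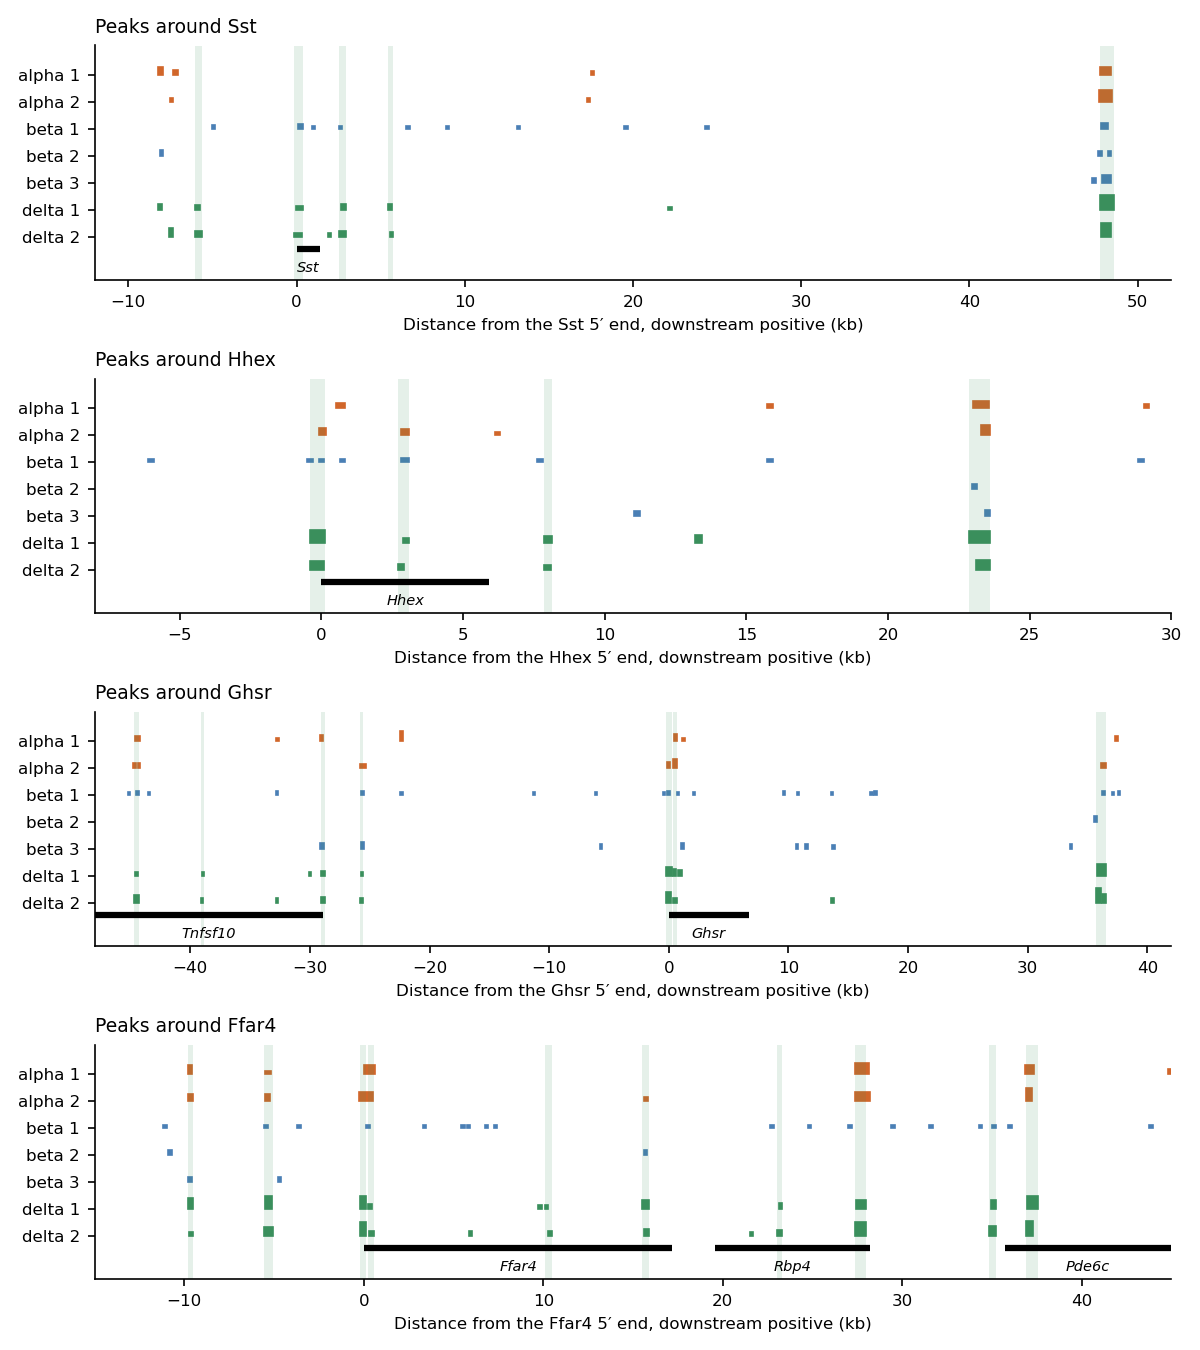
Peaks of each library (rows) around Sst, Hhex, Ghsr, and Ffar4 with Rbp4, by distance from the 5' end of the gene in kb with downstream positive. Each block is a peak, its height grows with the fold enrichment, shaded columns are delta regions, and black bars are genes, and delta regions without a block in the alpha and beta rows can be seen at Sst, Hhex, Ghsr, and Rbp4.

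A start peak was defined as one no farther than 1 kb from the annotated 5' end. All 5 delta identity genes had a start peak in both delta lists, beside 54.5% of 21728 protein-coding genes (11848). Both alpha lists had a start peak at 4 of the 5, all but Sst, and at least 2 beta lists had one at 0. The markers of the other islet cell types were also open in part. The start of Gcg, the glucagon gene, had peaks at percentile 94.1 and 91.6 in the alpha libraries and at 47.1 in delta 2, and no peak in delta 1. Ins1, whose promoter drives the mCherry reporter, had start peaks in all 3 beta libraries (98.7, 41.7, and 86.7) and also in both alpha (21.2 and 53.3) and both delta libraries (77.2 and 13.9). Iapp, the amyloid peptide of beta cells, stood at 8.0 and 35.2 in delta cells.

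**Figure D2:**
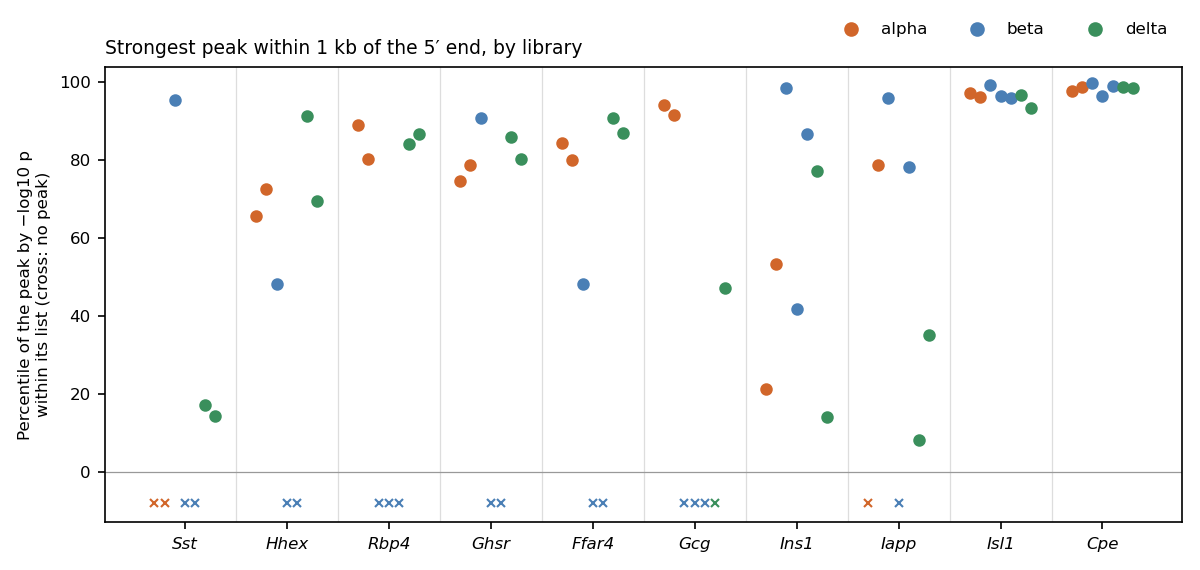
Percentile by -log10 p of the strongest start peak (at most 1 kb from the 5' end) of 10 genes in each of the 7 libraries, coloured by cell type, with crosses for libraries without a peak. The 5 delta identity genes have a point in both delta libraries, low for Sst and between 69.4 and 91.3 for the others, and Isl1 and Cpe are above 93 in every library.

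By their roles, the genes of delta cell secretion were open at their start to unequal extents. Of the somatostatin family and receptors, 4 of 7 genes had a start peak in both delta lists. This share, 57.1%, was near that of all protein-coding genes (54.5%). The 4 genes were Sst and the receptor genes Sstr1, Sstr2, and Sstr3, while Cort, Sstr4, and Sstr5 had none in either delta list. Of receptors and channels that act on delta cell secretion, 12 of 17 did. Kcnj11, a subunit of the ATP-sensitive potassium channel, stood at percentile 92.8 and 77.2 in delta 1 and delta 2, its other subunit Abcc8 at 81.1 and 67.9, and the incretin receptor Glp1r at 65.1 and 55.8. Crhr2, the receptor for urocortin 3 from beta cells, had no start peak in any of the 7 lists, nor had the muscarinic receptor Chrm4 or the calcium channel genes Cacna1a and Cacna1d. Only the 5' end of the gene counts as its start here. Counted at any annotated transcript start, 15 of the 17 receptors and channels (88.2%) were open in both delta lists, beside 59.6% of all protein-coding genes. Genes without a start peak can thus be open at another transcript start.

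Of 28 islet transcription factors, 23 were open at the start in both delta lists. Pou3f4 (98.7 and 94.5), Isl1 (96.6 and 93.5), Mafa (95.8 and 92.6), and Neurod1 (95.0 and 93.1) were among the strongest of them. Mafa is known as a factor of mature beta cells, and its start was open in all 7 libraries, as was that of Pdx1 in all but beta 2. Pax4, Myt1, St18, and Fev were among those that lacked a start peak in at least 1 delta list. Of 15 genes of the secretory granule and exocytosis, 13 were open, led by Scg3 (99.4 and 98.2), Cpe (98.8 and 98.6), and Rab3a (98.1 and 94.1), while Vgf and Vamp2 were not open in both.

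Of the alpha markers 6 of 7 were open at the start in both delta lists (all but Gcg), and of the beta markers 7 of 10 (all but Ins2, Slc2a2, and G6pc2). Counted at any transcript start, alpha markers stayed at 6 of 7 and beta markers rose to 9 of 10, beside 59.6% of all protein-coding genes. PP and epsilon markers (0 of 3), endothelial markers (0 of 6), and immune markers (0 of 7) had no gene open at the start in both delta lists, and the acinar (1 of 8, Rbpjl), mesenchymal (1 of 6, Pdgfrb), Schwann cell (1 of 4), and duct markers (2 of 5, Spp1 and Cftr) had few. With the strongest peaks alone 47.3% of all protein-coding genes were open at the start in both delta lists. The counts were then 3 of 7 alpha markers (42.9%), 2 of 10 beta markers (20%), and 2 of 7 genes of the somatostatin family (28.6%), all below the share of all genes, and 0 of acinar and of mesenchymal markers. Delta identity genes, at 4 of 5 (all but Sst), remained above it, as did islet transcription factors, at 17 of 28, and secretory granule genes, at 11 of 15, while receptors and channels, at 8 of 17 (47.1%), were near it. Acinar genes Cpa1, Ptf1a, and Ctrb1, the immune gene Ptprc, and the endothelial gene Cdh5 had no start peak in either delta list. Kdr, an endothelial receptor, had a start peak at 79.7 in delta 1 and in no other list, and the part of other cells in these peaks was not tested. More cells of a type and more accessible DNA per cell cannot be told apart in sorted bulk samples. Counted as strongest peaks within 50 kb and summed over a list, with neighbouring genes sharing peaks, the delta identity genes held 26 and 24 in delta cells, 18 and 19 in alpha cells, and between 3 and 6 in beta cells. Alpha markers held 15 and 16 in delta cells beside 24 and 25 in alpha cells, beta markers 27 and 22 beside 29 to 39 in beta cells, and acinar markers 23 and 23 beside 18 to 28 in the other 5 libraries.

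**Figure D3:**
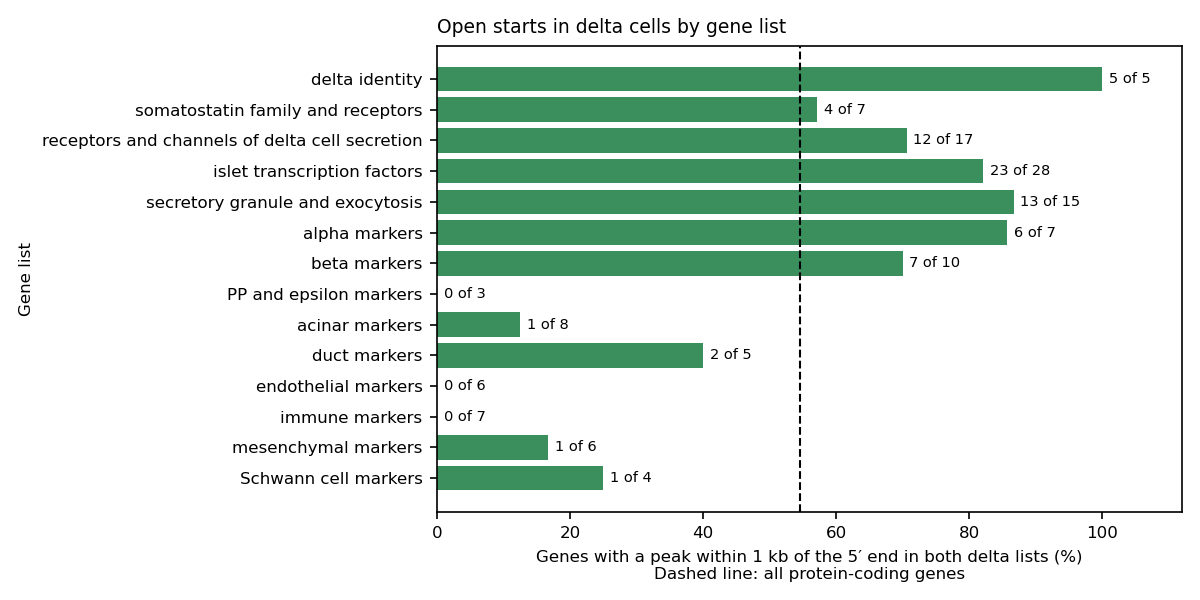
Share of the genes of each of 14 lists with a start peak (at most 1 kb from the 5' end) in both delta lists, in percent, with the counts beside the bars and a dashed line at 54.5% for all protein-coding genes. The alpha, beta, and delta lists lie above the line, the somatostatin family only just (57.1%), and the lists of non-endocrine cell types and of PP and epsilon cells lie below it, but with the strongest peaks alone the somatostatin, alpha, and beta lists are below the 47.3% of all genes.

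The number of strongest peaks within 50 kb of a gene was then compared between cell types with limma on log2(peaks + 1), over 15579 protein-coding genes. No gene passed an adjusted p of 0.05 in any of the 3 contrasts, so the background of calls was 0.00% for delta minus the mean of alpha and beta, 0.00% for delta minus alpha, and 0.00% for delta minus beta cells. At an unadjusted p of 0.05, 600 genes (3.85%) were higher and 361 (2.32%) lower in delta cells than in the mean of the others, 399 (2.56%) and 581 (3.73%) against alpha cells, and 1502 (9.64%) and 385 (2.47%) against beta cells. The median of all genes was shifted by 0.16 on the log2 scale in delta minus beta. The genes named next are among those of lowest p and did not pass.

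Adcy8, a calcium-activated adenylyl cyclase that makes cAMP, had 11 peaks in delta 1 and 11 in delta 2, 4 and 4 in the alpha libraries, and 2, 3, and 3 in the beta libraries. The groups did not overlap, and the log2 difference from the mean of the others was 1.49 ± 0.17 (SE; limma, adjusted p = 0.793). Rbp4 had 8 and 6 peaks in delta, 5 and 6 in alpha, and none in beta cells, which gave a log2 difference of 2.99 ± 0.22 from beta cells (SE; limma, adjusted p = 0.109) and 0.29 ± 0.24 from alpha cells (SE; limma, adjusted p = 0.895). In the other direction R3hdm2 had 3 and 2 peaks in delta cells, 10 and 9 in alpha cells, and 4, 5, and 7 in beta cells.

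Against alpha cells alone, Nebl, a nebulin-like actin-binding protein, had 11 and 8 peaks in delta cells and 2 and 2 in alpha cells, a log2 difference of 1.79 ± 0.23 (SE; limma, adjusted p = 0.773), with 8, 11, and 8 in beta cells. Mup10 and Speer4d had 0 peaks in both alpha libraries and 3 to 6 in the delta libraries, and both are members of multigene families. Arhgdib had 1 and 1 peaks in delta cells, 6 and 5 in alpha cells, and 1, 1, and 2 in beta cells. Against beta cells, Kcnh1, a voltage-gated potassium channel, had 3 and 3 in delta cells and 8, 9, and 6 in beta cells.

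Among the 93 list genes tested, both delta libraries lay above all 5 others for 3, among them Slc2a1 and Pcsk2. This was near the share over all genes tested, of which 544 (3.49%) did so. Both delta libraries lay below all 5 others for none of the 93 list genes, while 199 (1.28%) of all genes did so. Slc2a1, a glucose transporter, had 8 and 7 peaks in delta cells and 4 to 6 elsewhere, and Pcsk2, a prohormone convertase, 9 and 11 against 3 to 8. Of 4 delta identity genes with enough peaks to be tested (all but Sst), Hhex, Rbp4, and Ffar4 lay above the 3 beta libraries in both delta libraries, where 2179 (14%) of all genes did, and none lay above both alpha libraries, where 1597 (10.3%) did. Of 25 islet transcription factors tested, 6 lay above the 3 beta libraries (among them Hhex, Pax6, Foxa2, Insm1, and Hnf4a). Their median log2 difference was 0.39 from beta cells and -0.13 from alpha cells, beside 0.16 and -0.08 over all genes.

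Most delta regions were shared. A peak in all 5 alpha and beta libraries was found in 17570 delta regions (38.9%), and no peak in any of them in 2750 (6.08%). The regions of delta cells alone were weaker and less often near a transcript start. Of these, 10.3% lay within 1 kb of a transcript start and 22.2% had a -log10 q of at least 2 in both delta lists, with a median width of 320 bp, whereas of those open in all libraries 57.0% lay at a start and 92.9% passed that threshold, with a median width of 556 bp. Among the strongest peaks of the other libraries, those of alpha 1 and alpha 2 covered 55.3% and 63.8% of delta regions and those of beta 1, beta 2, and beta 3 47.4%, 43.9%, and 52.6%. The alpha and beta libraries did not overlap, with a difference of 11.5 percentage points (two-sided exact permutation test, p = 0.2), but 2 against 3 libraries cannot go below p = 0.1. The difference was 11.3 points among libraries of female and 13.7 among those of male mice. Depth also differed between the alpha and beta libraries, and its part in the difference was not tested. It was 7.27 points without alpha 2 and 20.2 points with peaks whose -log10 q was 2 or more (exact permutation p = 0.1), and with all deposited peaks, of which beta 1 has the most, beta 1 (74.7%) lay above alpha 1 (73.5%), so that the cell types overlapped.

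**Figure D4:**
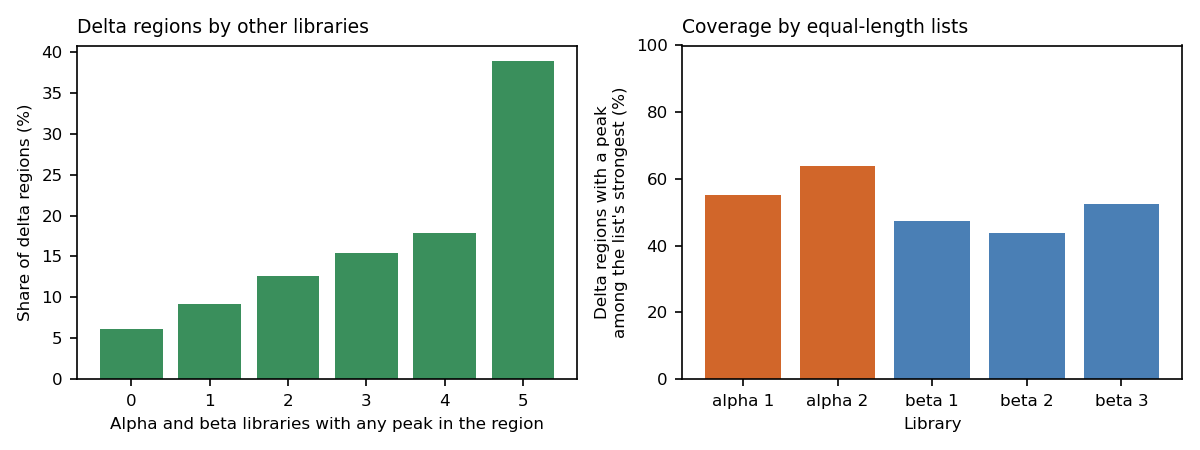
Left, share of the 45225 delta regions in percent by the number of alpha and beta libraries with any peak in the region. Right, share of delta regions with a peak among the 40000 strongest of each alpha and beta library, where both alpha libraries (55.3% and 63.8%) are above all 3 beta libraries (43.9% to 52.6%).

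Delta regions had a median width of 421 bp and covered 21.3 Mb. Over 3 kb from any transcript start lay 57.3% of them, and 35.8% were within 1 kb of one. Start regions were wider than distal ones, with a median of 551 bp beside 378 bp, and richer in G and C, with a median of 62.3% beside 46.0%. The motif content of both classes differed as well. GC boxes (GGGGCGG) were in 38.3% of start regions and 3.33% of distal regions, whereas AP-1 motifs (TGACTCA) were in 5.80% and 20.6% and homeodomain cores (TAATTA) in 2.33% and 11.1%. Of the distal delta regions open in both alpha libraries and no beta library (1390), the RFX motif (GTTGCCATG) was in 2.88%, beside 0.692% of the 578 that were open in all beta libraries and no alpha library and 1.64% of all distal delta regions.

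Shares of 10 motifs within 150 bp of the summits of the strongest peaks were compared between the delta and the other libraries. The HNF1 motif (GTTAATNAT) was in 1.67% of delta 2 peaks and 1.71% of delta 1 peaks and in 1.16% to 1.53% of the peaks of the other 5 libraries (two-sided exact permutation test, p = 0.0476, the smallest that 7 libraries allow; 0.476 adjusted over the 10 motifs). The RFX motif (GTTGCCATG) was in 1.38% and 1.52% beside 0.68% to 1.35% (exact permutation p = 0.0952, adjusted 0.476). Without the beta libraries, these 2 motifs differed from the alpha libraries by 0.234 and 0.214 percentage points (exact permutation p = 0.333 each). None of the 10 motifs passed after adjustment.

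A width of 1 kb was reached by 1106 delta regions, of which 1028 (92.9%) were open in all 7 libraries, as were the 15 widest. The widest of all, 3307 bp at chr1:24612878-24616184, matched the mitochondrial genome over its whole length at 99.97% identity, and those at chr4:80002408-80005248 (2841 bp) and in an intron of Myo3a (2141 bp) matched it over 98.5% and 98.2%. Their fold enrichment was nearly the same in every library, the highest exceeding the lowest by a factor of 1.01 to 1.03. The region chr17:13550663-13553170 (2508 bp) was soft-masked as repeat over 97.8% of its bases, and that near Vmn1r2 on chromosome 4 over 73.2%. The other 10 of the 15 widest lay at the 5' ends of genes or, for Zfp800, in its untranslated region.

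The widest of these was at the start of Xkr4 (2065 bp), a phospholipid scramblase family gene, followed by Zbtb10, Lonrf1, Kctd8, Cdh2, Ube2d3, Nudt11, Setd5, Tdrd3, and Zfp800 (1906 to 1622 bp). Cdh2, the neural cadherin found on islet cells, was wide in each library, with a widest peak of 1807 and 1747 bp in delta 1 and delta 2, 1651 and 1500 bp in the alpha libraries, and 1099, 1241, and 1414 bp in the beta libraries. At Kctd8, an auxiliary subunit of GABA-B receptors, the widest peak was 1353 bp in delta 1 but 510 bp in delta 2, within the 406 to 639 bp of the other libraries. Width thus differed between the 2 delta libraries by more than between cell types at some of these starts. Delta 1 and delta 2 also differ in sex, in depth, and in the number of cells. Peaks of at least 1 kb made up 1.63% and 0.753% of the strongest peaks of delta 1 and delta 2, 1.67% and 2.48% of those of the alpha libraries, and 0.165% to 0.380% of those of the beta libraries. The part of depth in these shares was not tested. Delta and other libraries overlapped, with a difference of 0.198 percentage points (two-sided exact permutation test, p = 0.762). Within sexes, delta 1 was 0.658 points above the female and delta 2 0.254 points below the male libraries of the other cell types, and without the beta libraries delta cells were 0.885 points below alpha cells (exact permutation p = 0.333, the smallest that 2 against 2 libraries allow).

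**Figure D5:**
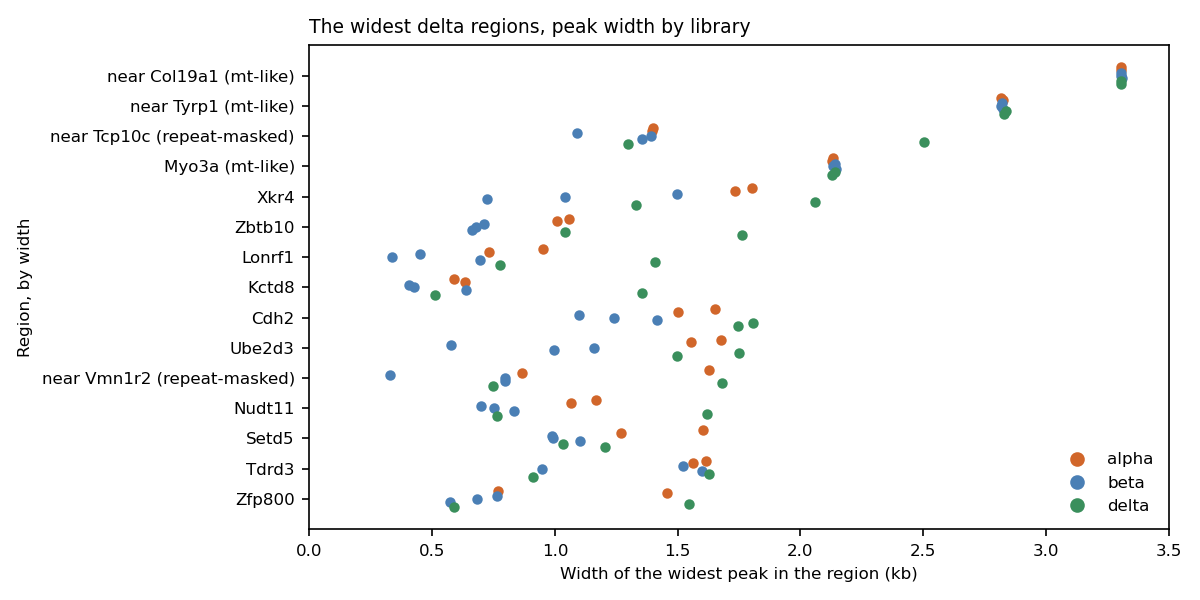
Width in kb of the widest peak of each library in the 15 widest delta regions, ordered by region width and coloured by cell type, with regions like mitochondrial DNA (mt-like) and repeat-masked regions marked. The 3 mt-like regions have nearly the same width in all libraries, whereas at gene starts such as Lonrf1 and Kctd8 delta 1 lies apart from delta 2.

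Protein-coding genes had a median of 4 delta regions within 50 kb, 99% had at most 15, and 2601 (12%) had none. Genes with the highest counts were long, and the count grows with the window. Nav2, a regulator of neurite growth, had 45, Dlg2, a synaptic scaffold, 43, and Ptprn2, a transmembrane protein of dense-core secretory granules, 42. Of the synaptic adhesion genes, Tenm2 had 38, Tenm4 37, Nrxn3 36, and Cntnap2 27. Others among the first 20 by this count, at 27 to 32, were the scaffold Magi2, the cAMP phosphodiesterase Pde4d, Elmo1, Gpc6, Celf4, Negr1, Dst, Fgfr2, Grid1, and the models Gm37240 and Gm37013, which span several genes, as does Gm20388 with 103 regions on 4535 kb. Ptprn2 had 25 alpha and 33 beta regions, and its strongest peaks numbered 30 and 34 in delta, 22 and 31 in alpha, and 41, 23, and 28 in beta libraries, so that the cell types overlapped. Fgfr2 stood apart in the other direction, with 27 delta beside 63 alpha regions and with 25 and 26 strongest peaks beside 54 and 54 in alpha cells, in a window of 3061 kb that holds other genes as well.

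Scaled to the length of the window, the median was 2.62 delta regions per 100 kb. Histone genes (Hist1h3g, 17.9; Hist1h2bn, 13.0; Hist2h2ab, 12.9), the immediate early gene Junb (14.4), the NF-kappaB cofactor Bcl3 (13.1), and Fem1a (16.9), Gm13283 (16.8), Ppm1n (15.5), and Cd3eap (14.5) were among the 10 highest. The highest, Gm10721 at 20.8, lay where every region was repeat-masked. Rbp4 and Ffar4, with 9.20 and 9.39, were just under the 99% point of 9.63.

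The densest 100-kb windows held 14 to 21 delta regions, where occupied windows had a median of 2. That with 21, at chr9:3001089-3101088, was soft-masked over more than 50% of the bases of all 21 regions. A histone cluster at chr13:23488631-23588630 and the window of Dpp9, Fem1a, Ticam1, and Plin3 at chr17:56194368-56294367 had 18 each. The histone window had 15 of its regions at transcript starts, and the chromosome 17 window had 9. The interferon gene cluster at chr4:88721945-88821944 held 17, of which 16 were open in all 5 other libraries, and its strongest peaks numbered 16 or 17 in each of the 7 libraries. Windows on chromosome 7 around Opa3, Vasp, and Fosb (16) and around Bcam and Bcl3 (15), on chromosome 8 around Plvap (15) and around Klf1 and Junb (15), on chromosome 1 around Igsf9 and Tagln2 (14), and on chromosome 10 around Stk11 and Cirbp (14) followed. By chromosome the density was 15.6 to 19.6 regions per Mb on autosomes and 8.63 on X.

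The strongest distal delta regions were not of delta cells alone. Of the 10 with the highest percentile in both delta lists, all were open in every library, and 8 matched the mitochondrial genome over at least 50% of their bases. The first, chr12:97061348-97061892, had a fold enrichment of 26.0 in both delta libraries and 26.2 to 26.4 in the other 5. Over all delta regions, 52 matched the mitochondrial genome over at least 50% of their bases, 50 of them open in all 5 other libraries, with a median fold enrichment of 16.6 and 18.4 in delta 1 and delta 2 beside 6.25 and 5.47 over all delta regions. A further class of 1445 regions (3.20%) was repeat-masked over more than 50% of its bases, and 43729 regions were in neither class.

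The strong regions without a strong peak elsewhere were chosen after the values were seen, and they are a description only. The region chr11:28636748-28637158, 52424 bp from the 5' end of Ccdc85a, had a fold enrichment of 16.5 in delta 1 and 13.9 in delta 2 and no peak in any other list. The region chr9:91088401-91088912, whose nearest coding start is that of Zic4 at 273501 bp, reached 10.7 and 15 with no other peak. Introns of Ank1 (7.84 and 11.3), Kcnip4, which encodes a potassium channel interacting protein (9.21 and 12.9), and Pdia5, which encodes a protein disulfide isomerase (7.88 and 11.3), also held regions of delta cells alone. That in Ank1 lay 1415 bp from a transcript start and so was not distal. Each of these 5 regions passed a -log10 q of 9 in both delta lists, well above the regions at the Sst start (0.951 and 0.966).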

How the data were processed

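ATAC-Seq libraries of sorted mouse alpha, beta, and delta cells were analysed from the peak lists the authors deposited, 1 per library. The authors trimmed reads of 50 bp (Trimmomatic), aligned them to GRCm38 without mitochondrial DNA (Bowtie2), marked duplicates (Picard), removed blacklisted regions, and called peaks per library (MACS2; versions are not given in the sources used here). As deposited, each peak has a summit, a -log10 p and a -log10 q, a fold enrichment over the local background, and a score that is 10 times the -log10 p. No read counts were analysed here.

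Delta regions were merged by overlap of at least 1 bp, which gave the same regions as bedtools 2.31.1. Genes were taken from GENCODE (GRCm38) and promoters from RefSeq, and regions were matched to mitochondrial DNA with BLAST+ 2.17.0 (alignments of at least 100 bp). For comparisons, lists were reduced to the 40000 peaks of lowest p. Peaks within 50 kb of protein-coding genes with a mean of at least 2 were fitted with limma 3.58.1 (trend, R 4.3.3) as log2(peaks + 1) over all 7 libraries, with Benjamini-Hochberg adjustment at 0.05, after the code was tested on simulated data. Single values per library were compared with exact permutation tests. Other steps used Python 3.11.15, numpy 2.4.6, pandas 2.3.3, and scipy 1.17.1.

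Genes were named if they were on a fixed list of markers, among the 20 with most regions or the 10 densest, at the 10 densest windows, the 15 widest regions, or the 10 strongest distal regions, or, with no call, among the 3 of lowest p in each direction of each contrast. Genes that shared most regions with one already taken were passed over, and some genes under the rule are not reported here. The members and lists were chosen with earlier results of these data known. Alternatives covered list length, distance, pseudocount, filter, window, and each library left out. The study pooled mice by sex, so replicates of a group that differ in sex came from separate mice. But beta 1 and beta 3, both male, may share mice, and p-values may then measure technical spread. The study also compared cell types of the same animals, with beta cells sorted beside alpha or delta cells. Beta libraries may thus share mice with alpha or delta libraries, and no test paired libraries by mouse. Sex was added as a block after seeing the data.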

Additional observations from a re-analysis of the deposited data

How the results depend on the processing

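Of 449 recalculated values, 76 of the main comparisons and 334 of named genes and regions kept their direction and their side of the threshold or stayed within their limits. With lists reduced to the 40000 peaks of lowest p, 28012 delta regions were found, and single delta lists held 75860 (delta 2) and 158066 (delta 1) peaks. Under that reduction 13 of the 20 genes with most regions and 6 of the 10 densest windows were kept, and 6 of the 15 widest regions were kept when ranked by the narrower of the widest single peaks. Without the filter on low values limma called 63 genes in delta minus the mean of alpha and beta, 44 against alpha, and 76 against beta cells, of which 60, 44, and 63 had a mean under 2 peaks. With 25000 peaks per list 21 genes were called against beta cells, among them Rbp4 and Ffar4. Tmem63b, among the 3 genes of lowest p that were lower in delta cells (-1.16 from the mean of the others on the log2 scale), turned to 0.18 with 70000 peaks per list. Leaving out a library gave no call in any contrast. The replicate block gave 0 calls as well, and 0.045 percentage points for wide peaks (exact permutation p = 1). Correlations of same-numbered libraries were -0.06 to 0.04, and the numbers do not follow the sex by which mice were pooled, so the number was not taken as a pairing. With sex as a block, chosen after seeing the data, limma gave 0 calls in each contrast, the difference in wide peaks was 0.202 points (exact permutation p = 0.667), and that in coverage of delta regions 12.5 points (exact permutation p = 0.167). The difference in wide peaks ranged from -0.239 without delta 1 to 0.634 without delta 2, and was -0.00875 without beta 1. For GATAAG it ranged from -0.121 to 0.19. Without the beta libraries, an alternative chosen after seeing the data as was leaving out repeats, the difference was -0.885 for wide peaks, -0.175 for TGACGTCA, -0.17 for GATAAG, and -0.688 for GGGGCGG. The cause of these changes was not tested.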
